A study of Mus musculus with 12 samples.

Results

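The interferon-inducible GTPases described here are 10 genes of 2 families, 6 guanylate-binding proteins (Gbp2, Gbp3, Gbp5, Gbp6, Gbp7 and Gbp9) and 4 immunity-related GTPases (Igtp, Irgm1, Irgm2 and Iigp1). They were chosen by name from 21335 genes with a probe set on the array, and all 10 were found through the platform's gene symbols. They are read by 9 of the 28853 probe sets. Of these, 6 name 1 gene each, for Gbp3, Gbp5, Gbp7, Gbp9, Irgm1 and Iigp1. The other 3 are shared: 1 by Gbp2 and Gbp2b, 1 by Igtp and Irgm2, and 1 by Gbp4, Gbp6, Gbp8, Gbp9, Gbp10 and Gbp11, called the 6-gene Gbp set below. Gbp2, Gbp6, Igtp and Irgm2 were measured only through shared probe sets, so their own RNA cannot be told apart from that of the genes they share them with.

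The arrays measured total RNA of naive CD4 T cells from C57BL/6 mice that were wild type (WT) or carried a PP2Ac transgene, PP2Ac being the catalytic part of protein phosphatase 2A. Cells were either left without stimulus (0 h) or given soluble anti-CD3 at 0.25 ug/mL and anti-CD28 at 0.5 ug/mL over a plate-bound antibody against hamster immunoglobulin for 6 h or 24 h, in RPMI with fetal calf serum. Each of the 6 groups has 2 arrays, 1 of them marked Rep in its title and 1 unmarked, 12 in all. The labels do not give the promoter of the transgene, what Rep stands for, or whether the paired arrays of a group are of separate mice or cultures, so p-values measure only the spread between these arrays, which may be technical. One label of the WT samples calls their mice transgenic while the titles give WT, and the titles were followed.

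Guanylate-binding proteins and immunity-related GTPases are among the genes most strongly induced by interferon gamma. Guanylate-binding proteins are dynamin-related GTPases that assemble on the membranes around intracellular bacteria and parasites and on the bacteria themselves. Immunity-related GTPases act at the same vacuoles, where effectors such as Iigp1 coat and disrupt the membrane, while the regulators Irgm1, Irgm2 and Igtp keep the effectors inactive on the cell's own membranes. In CD4 T cells, which make interferon gamma and respond to it, Irgm1 is known for protecting the activated cells from death in its presence.

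By RefSeq on GRCm38.p6 the Gbp members lie in clusters, while the immunity-related GTPases are spread over chromosomes 11 and 18. Gbp5, Gbp7, Gbp3, Gbp2b and Gbp2 follow each other on chromosome 3 from 142496934 to 142638008. Gbp9 and Gbp6 lie on chromosome 5 among Gbp8, Gbp4, Gbp10 and Gbp11. Irgm1 lies on chromosome 11 at 48865245 to 48871420, and Igtp, at 58199556 to 58207592, is followed on the same chromosome by Irgm2, at 58214977 to 58222783.

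Promoter stretches are shown for 6 members to let the reader see where interferon-response elements lie by letter match. Gbp3, which has more than 1 annotated start, is described below but not printed. Each stretch holds the 110 bases before the gene's RefSeq start on its own strand, 5′ to 3′ (Gbp5 chr3:142496824-142496933, Gbp7 chr3:142530226-142530335 and Gbp2 chr3:142620553-142620662 on the plus strand, Irgm1 chr11:48871421-48871530 on the minus strand, Igtp chr11:58199446-58199555 and Irgm2 chr11:58214867-58214976 on the plus strand). Capitals mark a match to TTCNNNGAA, the gamma-activated sequence (GAS) of interferon gamma targets, or to a pair of GAAA blocks with 2 bases of any kind between them (on the reverse strand, a pair of TTTC blocks), called ISRE-like here after the interferon-stimulated response element.
Gbp5: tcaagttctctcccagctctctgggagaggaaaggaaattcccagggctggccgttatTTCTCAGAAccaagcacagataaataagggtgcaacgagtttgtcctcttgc
Gbp7: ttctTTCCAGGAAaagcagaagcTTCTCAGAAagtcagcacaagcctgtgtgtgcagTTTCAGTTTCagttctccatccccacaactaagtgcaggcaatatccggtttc
Gbp2: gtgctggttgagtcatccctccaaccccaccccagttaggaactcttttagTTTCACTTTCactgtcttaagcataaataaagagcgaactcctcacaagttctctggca
Irgm1: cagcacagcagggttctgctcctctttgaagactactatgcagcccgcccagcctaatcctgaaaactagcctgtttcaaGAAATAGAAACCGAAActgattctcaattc
Igtp: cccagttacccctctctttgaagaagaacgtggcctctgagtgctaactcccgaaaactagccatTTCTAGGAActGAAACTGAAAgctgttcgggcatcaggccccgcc
Irgm2: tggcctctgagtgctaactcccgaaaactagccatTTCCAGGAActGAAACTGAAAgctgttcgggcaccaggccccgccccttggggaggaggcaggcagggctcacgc

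Windows from 250 bases before the RefSeq start to shortly past it were searched in 7 member genes. Any window on chromosome 18, where Iigp1 lies, was left out of the members' search. All member matches lay before the start, whereas the shares over all genes count matches anywhere in the window. A GAS match was found in 4 of these genes, Gbp5, Gbp7, Igtp and Irgm2, against 8.3% of 32851 windows of all genes. An ISRE-like match was found in all 7 (Gbp2, Gbp3, Gbp5, Gbp7, Irgm1, Igtp and Irgm2), against 3.44% of all windows, although Gbp3 has a further annotated start whose window holds none. Both kinds were present in 4 of the 7, against 0.454% of all windows. The GAS match of Gbp7 nearest its start and that printed for Gbp5 have the same letters. In Igtp and in Irgm2 the GAS match starts 11 bases before the ISRE-like match, and 77 of 80 bases around it are identical between the genes. The ISRE-like match of Gbp5 lies 165 bases upstream, outside the stretch shown. The matches in Irgm1 overlap each other. These are matches of letters, and no binding was measured.

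Whole-array facts were as follows. Array medians of the deposited log2 values lay between 7.39 and 7.50, and the 2 arrays of a group correlated at 0.992 to 0.997 across probe sets. Ppp2ca, the gene encoding PP2Ac, was higher in transgenic cells by 0.74, 0.38 and 0.60 log2 at 0, 6 and 24 h, and passed the test only at 0 h with the replicate block (adjusted p = 0.035, and 0.055 without it). Nova1, which earlier results on these arrays set apart, was called higher in transgenic cells at every time by both of its probe sets, by 3.94 to 5.81 log2. The mean of 7 measured CD4 T cell markers, Cd3e and Cd4 among them, was 12.8 to 13.3 on every array, above each array's median. Neutrophil markers (10 of 10 measured) averaged 8.08 to 9.14 on the 3 WT arrays marked Rep, 11.56 to 12.50 on the unmarked WT arrays and 10.34 to 12.33 on the transgenic arrays. Monocyte and macrophage markers (8 of 12 listed symbols measured) averaged 8.59 to 8.94 on those 3 WT arrays and 9.84 to 10.33 on the other 9. None of these 18 markers fell below the lower quartile of any array. The 3 WT arrays marked Rep therefore stand apart, and results that rest on them are also given without them. In bulk RNA, fewer cells of a type and less RNA per cell cannot be told apart.

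Values below are quantile-normalised log2 values, and differences are on the same log2 scale, so that 1 is a doubling. Where 2 array values are given for a group, the unmarked array comes first and the array marked Rep second. A difference was called when limma's adjusted p (Benjamini-Hochberg over 23410 probe sets) was below 0.05. Because same-marked arrays deviated together, the adjusted p of the fit with the mark as replicate block is given wherever it changes a call.

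Stimulation raised Gbp5 and the Gbp2 and Gbp2b probe set in both genotypes at 6 h, and in transgenic cells Gbp3 as well. These were 2 of 9 member probe sets called higher in WT cells, where 12.6% of all tested probe sets were called higher, and 3 of 9 in transgenic cells, where 12.5% were. With the replicate block 8 of 9 were called higher in each genotype, against 14.3% of all tested in WT and 14.1% in transgenic cells. Gbp9 was the exception in both. The median 6 h difference of the members was 0.74 in WT and 0.82 in transgenic cells, against -0.0063 and 0.0003 over all probe sets tested.

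Gbp5, linked to inflammasome activation, had the largest response of the 9. It read 8.84 and 9.60 on the WT arrays at 0 h, 11.92 and 11.97 at 6 h, and 10.80 and 12.05 at 24 h. On the transgenic arrays it read 9.39 and 9.62 at 0 h, 11.91 and 12.33 at 6 h, and 11.61 and 12.18 at 24 h. Every stimulated array was above every unstimulated one, and the unmarked WT array at 24 h was the lowest of the stimulated arrays. At 6 h the difference was 2.73 ± 0.39 (SE, n = 2 against 2) in WT cells, a 6.62-fold rise (limma adjusted p = 8e-04), and 2.62 ± 0.39 in transgenic cells, a 6.16-fold rise (adjusted p = 0.0011). At 24 h it was 2.20 ± 0.39 in WT (adjusted p = 0.003) and 2.39 ± 0.39 in transgenic cells (adjusted p = 0.0025). The Gbp5 calls held in all 12 fits that left out 1 array, in each of these 4 comparisons.

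The Gbp2 and Gbp2b probe set, which reads Gbp2, a GTPase recruited to parasite vacuoles, and its neighbour Gbp2b, read 12.11 and 12.94 on the WT arrays at 0 h, 13.77 and 13.84 at 6 h, and 13.07 and 13.98 at 24 h. Transgenic arrays read 12.38 and 12.93, then 13.82 and 13.95, then 13.76 and 14.05. Stimulated arrays were above the unstimulated ones throughout. The set rose by 1.28 ± 0.33 at 6 h in WT (limma adjusted p = 0.018), by 1.23 ± 0.33 at 6 h in transgenic cells (adjusted p = 0.023) and by 1.25 ± 0.33 at 24 h in transgenic cells (adjusted p = 0.024). The Gbp2 and Gbp2b calls held in 9 of 12 fits that left out 1 array, in each of the 3 comparisons. At 24 h in WT the difference of 1.0 ± 0.33 missed the threshold (adjusted p = 0.052, block 0.0057). A separate probe set of Gbp2b alone was dim, at 5.74 to 6.51 over the 12 arrays, and rose at 6 h by 0.55 ± 0.11 in WT and by 0.57 ± 0.11 in transgenic cells (limma adjusted p = 0.0046 and 0.0038).

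Gbp3 and Gbp7, their neighbours on chromosome 3, were highest at 6 h. Gbp3 read 9.47 and 10.00 on the WT arrays at 0 h, 10.46 and 10.50 at 6 h, and 9.39 and 10.08 at 24 h. In transgenic cells it read 9.67 and 10.03, then 10.53 and 10.82, then 10.22 and 10.46. WT cells at 24 h were thus back in the range of 0 h, whereas the transgenic arrays at 24 h were above those at 0 h without overlap. The 6 h difference was 0.83 ± 0.25 in transgenic cells (limma adjusted p = 0.037) and 0.74 ± 0.25 in WT (adjusted p = 0.055, block 0.0037), and the transgenic call held in 6 of 12 fits that left out 1 array. At 24 h it was -0.0026 in WT (adjusted p = 1) and 0.49 ± 0.25 in transgenic cells (adjusted p = 0.21, block 0.031).

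Gbp7, linked to oxidative defence in macrophages, read 11.58 and 12.04 on the WT arrays at 0 h, 11.98 and 12.26 at 6 h, and 11.23 and 11.73 at 24 h. The transgenic readings were 11.67 and 12.02, then 11.98 and 12.40, then 11.99 and 12.19. Its WT arrays at 24 h lay below all 4 arrays at 6 h and both transgenic arrays at 24 h, and every other pair of groups overlapped. The 6 h rise passed with the block only, at 0.31 ± 0.23 in WT (limma adjusted p = 0.40, block 0.031) and 0.34 ± 0.23 in transgenic cells (adjusted p = 0.36, block 0.021). In WT at 24 h Gbp7 was the single member below its 0 h level that passed with the block, by -0.33 ± 0.23 (adjusted p = 0.35, block 0.022).

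Gbp9 has a probe set of its own and is also read by the 6-gene Gbp set, and these gave different patterns. Gbp9 read 10.80 and 11.22 on the WT arrays at 0 h, 10.81 and 11.05 at 6 h, and 10.81 and 11.16 at 24 h. Its transgenic readings were 10.92 and 11.13, then 10.75 and 11.35, then 11.35 and 11.69. The 10 arrays other than transgenic 24 h lay within 10.75 to 11.35. At 6 h its difference was -0.08 ± 0.23 in WT and 0.03 ± 0.23 in transgenic cells (limma adjusted p = 0.86 and 0.96), with 95% intervals of -0.60 to 0.44 and -0.49 to 0.55. At 24 h in transgenic cells it was 0.49 ± 0.23 (adjusted p = 0.17, block 0.0065).

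The 6-gene Gbp set read 11.42 and 11.98 on the WT arrays at 0 h, 12.22 and 12.65 at 6 h, and 11.92 and 12.63 at 24 h. In transgenic cells it read 11.67 and 12.07, then 12.38 and 12.92, then 12.66 and 13.06. The stimulated transgenic arrays were all above the unstimulated ones, while in WT the unmarked array at 24 h fell below the marked array at 0 h. The set rose at 24 h in transgenic cells by 0.99 ± 0.31 (limma adjusted p = 0.045), a call that held in 8 of 12 fits without 1 array. At 6 h the difference was 0.74 ± 0.31 in WT (adjusted p = 0.12, block 0.00048) and 0.78 ± 0.31 in transgenic cells (adjusted p = 0.10, block 0.00038). The WT difference at 24 h was 0.58 ± 0.31 (adjusted p = 0.21, block 0.0019). The set does not tell its 6 genes apart, but Gbp4, Gbp8 and Gbp11 also have probe sets of their own, of which none was called at 6 h or 24 h without the block. With the block Gbp4 passed at 6 h, at 0.42 in WT and 0.43 in transgenic cells (limma adjusted p = 0.44 and 0.43, block 0.018 and 0.016). Gbp11 passed as well, at 0.48 and 0.91 (adjusted p = 0.44 and 0.13, block 0.046 and 0.0022), while Gbp8 differed by 0.01 and 0.04 (block 0.97 and 0.85). At 24 h all 3 passed with the block in transgenic cells, at 0.69 for Gbp4, 0.67 for Gbp8 and 1.10 for Gbp11 (block adjusted p = 0.0019, 0.0028 and 0.0012), and none did in WT.

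Among the immunity-related GTPases, Irgm1 was called in transgenic cells at 24 h, and the others passed with the block only. Irgm1 read 11.43 and 12.34 on the WT arrays at 0 h, 12.61 and 12.80 at 6 h, and 12.20 and 12.91 at 24 h. The transgenic arrays gave 11.92 and 12.20, then 12.73 and 13.03, then 12.94 and 13.08. All stimulated arrays but the unmarked WT array at 24 h were above all unstimulated arrays. The rise in transgenic cells at 24 h was 0.95 ± 0.30 (limma adjusted p = 0.049), a call that held in 4 of 12 fits without 1 array and in 6 of the 10 other alternatives. At 6 h the difference was 0.82 ± 0.30 in both genotypes (limma adjusted p = 0.078 for WT and 0.083 for transgenic cells, block 0.009 and 0.0095). At 24 h in WT it was 0.67 ± 0.30 (adjusted p = 0.14, block 0.023).

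The Igtp and Irgm2 probe set, 2 regulators whose promoter stretches above are nearly the same, read 11.76 and 12.50 on the WT arrays at 0 h, 12.52 and 12.80 at 6 h, and 12.29 and 12.75 at 24 h. On transgenic arrays it read 12.01 and 12.39, then 12.67 and 12.91, then 12.83 and 12.99. At 6 h both genotypes were above their 0 h arrays without overlap, in WT by a gap of 0.02 between single arrays. The 6 h difference was 0.53 ± 0.25 in WT (limma adjusted p = 0.17, block 0.014) and 0.59 ± 0.25 in transgenic cells (adjusted p = 0.13, block 0.0086). At 24 h it was 0.39 ± 0.25 in WT (adjusted p = 0.32, block 0.052) and 0.71 ± 0.25 in transgenic cells (adjusted p = 0.075, block 0.004).

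Iigp1, the effector among the members, had the widest spread between the 2 arrays of a group, 1.75 in WT at 0 h. It read 8.26 and 10.01 on the WT arrays at 0 h, 10.12 and 10.74 at 6 h, and 9.62 and 11.21 at 24 h. Transgenic values were 8.96 and 9.99, then 10.35 and 11.16, then 10.91 and 11.44. At 6 h the groups did not overlap in either genotype, but in WT the unmarked 6 h array was only 0.11 above the marked 0 h array. The 6 h difference was 1.29 ± 0.67 in WT and 1.28 ± 0.67 in transgenic cells (limma adjusted p = 0.21 and 0.22, block 0.0084 and 0.0091). The 24 h difference was 1.28 ± 0.67 in WT and 1.70 ± 0.67 in transgenic cells (limma adjusted p = 0.21 and 0.10, block 0.0092 and 0.0026).

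**Figure D1:**
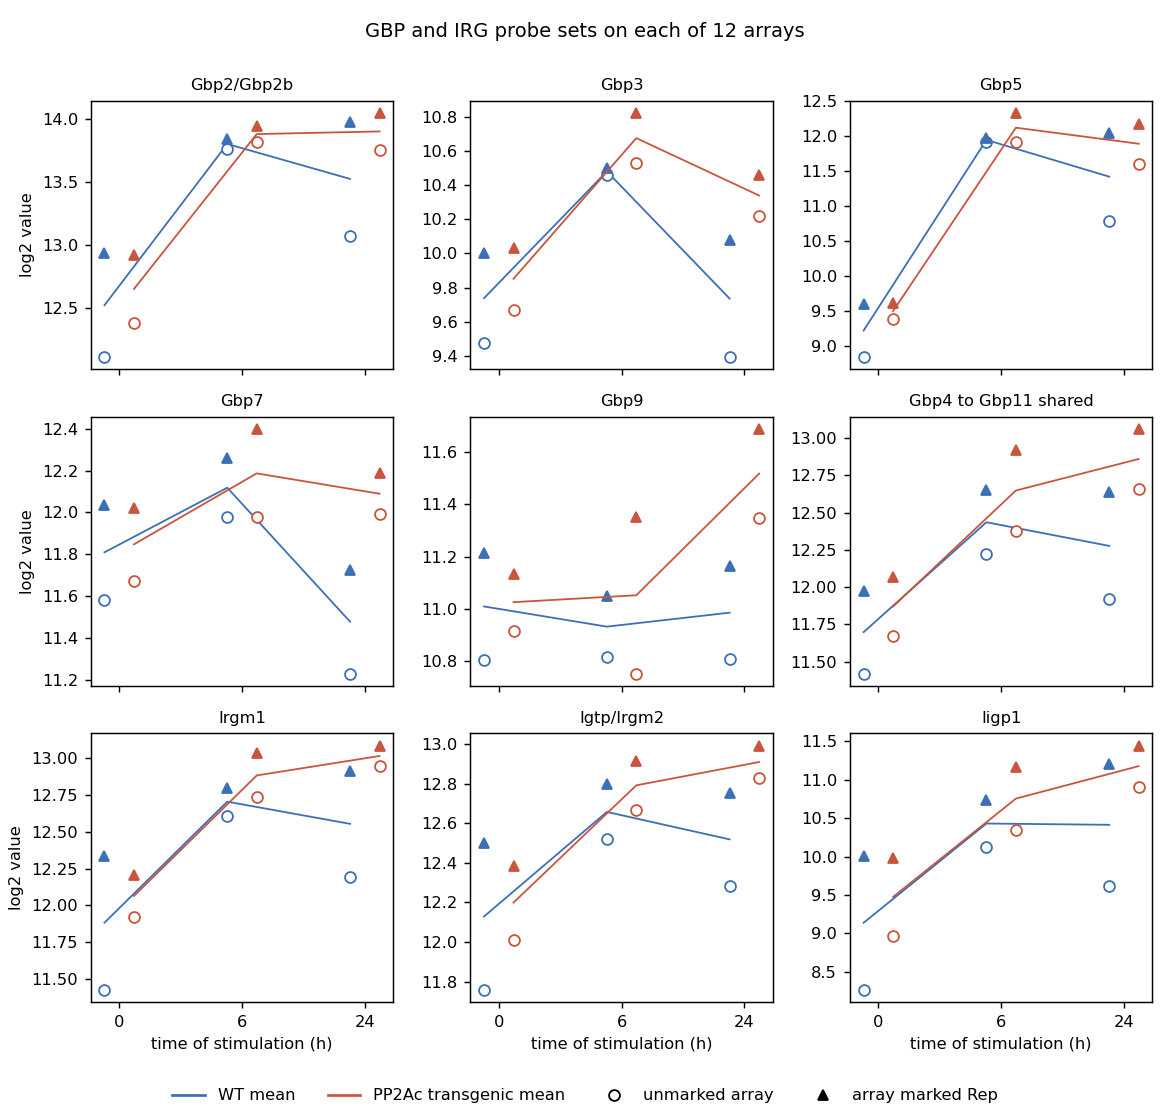
Log2 value (vertical axis) of each of the 9 member probe sets against hours of stimulation (horizontal axis), 1 point per array, with open circles for unmarked arrays, filled triangles for arrays marked Rep, and lines through the group means of WT and transgenic cells. Gbp5 rises from 8.84 to 9.62 at 0 h to 11.91 to 12.33 at 6 h, Gbp9 stays within 10.75 to 11.35 outside the transgenic 24 h arrays, and every triangle lies above its circle.

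At 24 h fewer members were called in WT than in transgenic cells, a contrast whose own test is given below. In WT 1 of 9 was called higher at 24 h, Gbp5, where 12.9% of all tested were called higher, and with the block 5 were higher (14.7% of all tested) and 1 was lower (16.6%). In transgenic cells 4 of 9 were called higher, Gbp5, the Gbp2 and Gbp2b set, Irgm1 and the 6-gene Gbp set, where 12% of all tested were, and with the block 8 of 9, where 13.9% were. Groups did not overlap for 7 of 9 members at 6 h in each genotype, against 28.4% of all tested in WT and 29.6% in transgenic cells, all of them higher. At 24 h they did not overlap, with the stimulated arrays higher, for 2 of 9 in WT (27.5% of all tested) and 8 of 9 in transgenic cells (29.3%).

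Without the 3 WT arrays marked Rep the members' median WT difference was 0.99 at 6 h, against 0.74 with them, and 0.53 at 24 h, against 0.58, where Gbp5 was at 1.96 (limma adjusted p = 0.013). Counts by the fit without the block moved with single arrays. In WT at 6 h the 2 calls became 1 without the unmarked 0 h array or without either 6 h WT array, 5 without the marked 0 h array, and 4 once all 3 WT arrays marked Rep were dropped. In transgenic cells at 6 h the 3 calls became 1 without the unmarked 0 h array or without either 6 h array, and 6 once those 3 WT arrays were dropped. For WT at 24 h the 1 call became 2 without the unmarked 24 h array and 3 without the marked 0 h array. For transgenic cells at 24 h the 4 calls became 1 without the unmarked 0 h array or without either 24 h array, and 2 without the marked 0 h array.

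**Figure D2:**
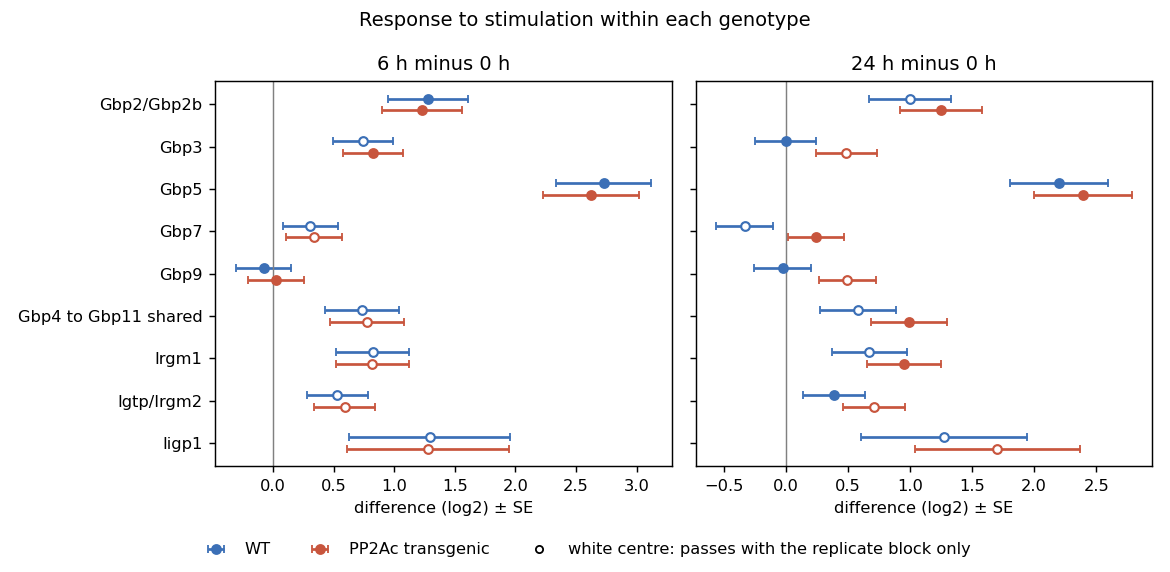
Difference from 0 h (log2, horizontal axis, ± SE of the fit without the block) at 6 h and at 24 h for each member probe set, WT and transgenic cells side by side, each from 2 against 2 arrays. White centres mark differences that passed the test only with the replicate block. The 6 h values of the genotypes lie close together, from 2.73 and 2.62 for Gbp5 to -0.08 and 0.03 for Gbp9, and at 24 h Gbp3, Gbp7 and Gbp9 are at or below 0 in WT and above it in transgenic cells.

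Between 6 h and 24 h no member was called in either genotype by limma without the block. In WT 2 of 9 had an unadjusted p below 0.05, against 6333 of the 23410 tested, in either direction. In transgenic cells 0 of 9 did, against 6231 of the 23410. Over all tested probe sets 7.49% were called higher and 5.86% lower in WT, and 7.89% higher and 6.42% lower in transgenic cells. With the block 2 were lower in WT, against 8.8% of all tested. These were Gbp7, by -0.64 ± 0.23 (adjusted p = 0.10, block 0.0022), and Gbp3, by -0.75 ± 0.25 (adjusted p = 0.083, block 0.0078). Without the marked WT array at 24 h Gbp3 was called (adjusted p = 0.026). The members' median in WT was -0.16 and became 0.17 without the unmarked 24 h array and -0.50 without the 3 WT arrays marked Rep. For Gbp3 and Gbp7 the WT arrays at 24 h were below those at 6 h without overlap, as for 29.3% of all tested. The other members overlapped in WT. In transgenic cells 1 of 9 was lower at 24 h without overlap, Gbp3, at 10.22 and 10.46 against 10.53 and 10.82. Its difference was -0.34 and was not called, with or without the block. For that direction in transgenic cells no share over all tested is given here. In transgenic cells 1 member passed with the block, Gbp9, higher by 0.47 ± 0.23 (adjusted p = 0.24, block 0.013), against 9.96% of all tested.

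The group order put transgenic cells at 24 h highest for 6 of 9 members and transgenic cells at 6 h highest for the other 3, Gbp3, Gbp5 and Gbp7. WT at 0 h was lowest for 6, WT at 24 h for 2, Gbp3 and Gbp7, and WT at 6 h for Gbp9. Of the 5 steps between neighbouring groups in that order, the arrays of the 2 groups were free of overlap in 3 for Gbp3, 1 for Gbp5, 1 for the Gbp2 and Gbp2b set, and 0 for each of the other members.

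The comparison of the genotypes asked whether PP2Ac over-expression altered these genes at rest or after activation. All 9 members had a higher mean in transgenic than in WT cells at each of the 3 times, and none passed the test at any time. At 0 h the differences were 0.02 to 0.34 with a median of 0.13, against -0.02 over all tested. limma called 0 of 9 (0.00854% of all tested were called higher), 0 of 9 had an unadjusted p below 0.05, the block called 0 (0.0171% of all tested), and the groups overlapped for all 9 (12.8% of all tested were higher without overlap). Between the unmarked arrays all 9 were higher in transgenic cells, with a median of 0.25, and between the marked arrays only 3 were, with a median of -0.01. Without the unmarked WT array none of the 9 was higher, and without the marked transgenic array 2 were. Without the marked WT array all 9 were, with a median of 0.45.

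At 6 h the genotype differences were 0.07 to 0.32 with a median of 0.17. limma called 0 of 9, with or without the block, against 0.00854% and, with the block, 0.0128% of all tested higher, and 0 of 9 had an unadjusted p below 0.05. Gbp3 alone was free of overlap, where 11.1% of all tested were higher without overlap. Between the unmarked arrays 6 of 9 were higher in transgenic cells (median 0.07) and between the marked arrays 9 of 9 (median 0.27). The median became -0.04 without the marked transgenic array and 0.01 without the unmarked WT array, and it was 0.24, with all 9 higher, without the marked WT array.

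At 24 h the genotype differences were larger, 0.38 to 0.76 with a median of 0.53, against -0.0077 over all tested. All 9 members were higher in transgenic cells in both array sets, as were 24.4% of all tested probe sets. The medians were 0.75 between the unmarked arrays (0.54 to 1.29) and 0.24 between the marked arrays (0.07 to 0.53). limma called 0 of 9, against 0.00854% of all tested higher. Without the block 3 members had an unadjusted p below 0.05, as did 997 of the 23410 tested, in either direction. With the block 7 members did, and for that fit no count over all tested is given here. The block also called 0 (0.0171% of all tested), and the members' lowest adjusted p with it was 0.22. In 6 of 9 the arrays did not overlap, where 14.5% of all tested were higher without overlap.

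Those 6 were Gbp3, Gbp7, Gbp9, the 6-gene Gbp set, Irgm1 and the Igtp and Irgm2 set. Gbp7 was higher in transgenic cells by 0.61 ± 0.23, with a 95% interval of 0.09 to 1.13 (unadjusted p = 0.025, limma adjusted p = 1). Gbp3 was higher by 0.60 ± 0.25 (unadjusted p = 0.037, adjusted p = 1) and Gbp9 by 0.53 ± 0.23 (unadjusted p = 0.045, adjusted p = 1). For Gbp9 the 2 array sets gave nearly the same value, 0.54 and 0.53. The immunity-related GTPases differed more between the sets, Irgm1 by 0.75 and 0.17, the Igtp and Irgm2 set by 0.54 and 0.24, and Iigp1 by 1.29 and 0.24 between the unmarked and the marked arrays. For the 3 members with overlap the differences were 0.76 ± 0.67 for Iigp1, 0.47 ± 0.39 for Gbp5 and 0.38 ± 0.33 for the Gbp2 and Gbp2b set.

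The size of the 24 h difference rested on single arrays. Without the unmarked WT array at 24 h, which was the lowest of the 4 arrays at that time for every member, the median fell to 0.16 and 6 of 9 members were higher, over a range of -0.16 to 0.36. It became 0.86 without the marked WT array, which gives the same value as leaving out all 3 WT arrays marked Rep. The unmarked WT array at 24 h had neutrophil markers at 11.56 and monocyte markers at 10.22, against 8.08 and 8.59 on the marked one and 10.34 to 10.77 and 10.03 to 10.14 on the transgenic arrays. Natural killer cell markers (7 of 7 measured) averaged 8.98 and 8.43 on the transgenic arrays at 24 h, above 8.15 and 8.09 in WT. B cell markers (6 of 7 measured) were also higher without overlap, at 11.10 and 10.89 against 10.84 and 10.31. So were dendritic cell markers (7 of 7 measured), at 7.0 and 7.12 against 6.85 and 6.81. CD8 T cell markers (2 of 2 measured) overlapped, at 11.02 and 10.18 against 10.27 and 9.88. Among single markers Gzma and Prf1, which activated T cells also make, differed by 1.29 and 0.87 at 24 h (limma adjusted p = 1 for each). Itgax, a dendritic cell marker, was higher in transgenic cells by 0.54 ± 0.08 averaged over the times (limma adjusted p = 0.12, block 0.01). Of the other dendritic cell markers, Siglech and Flt3 differed by 0.43 and 0.40. Clec9a differed by 0.16 and lay below the lower quartile on 9 of the 12 arrays. Batf3, Xcr1 and Zbtb46 differed by 0.07, 0.06 and 0.02. None of these others was called, with or without the block. Natural killer and dendritic cell markers were above WT without overlap at 6 h as well, and dendritic cell markers at 0 h. For natural killer cell markers at 6 h the closest arrays were at 8.97 and 8.96. Erythroid markers (3 of 7 measured) were also above WT without overlap at 0 h, at 8.23 to 8.38 against 7.07 to 7.80. They were so at 6 h too, at 7.69 to 7.99 against 6.99 to 7.42, but overlapped at 24 h. The part of other cells in the genotype difference was not tested.

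**Figure D3:**
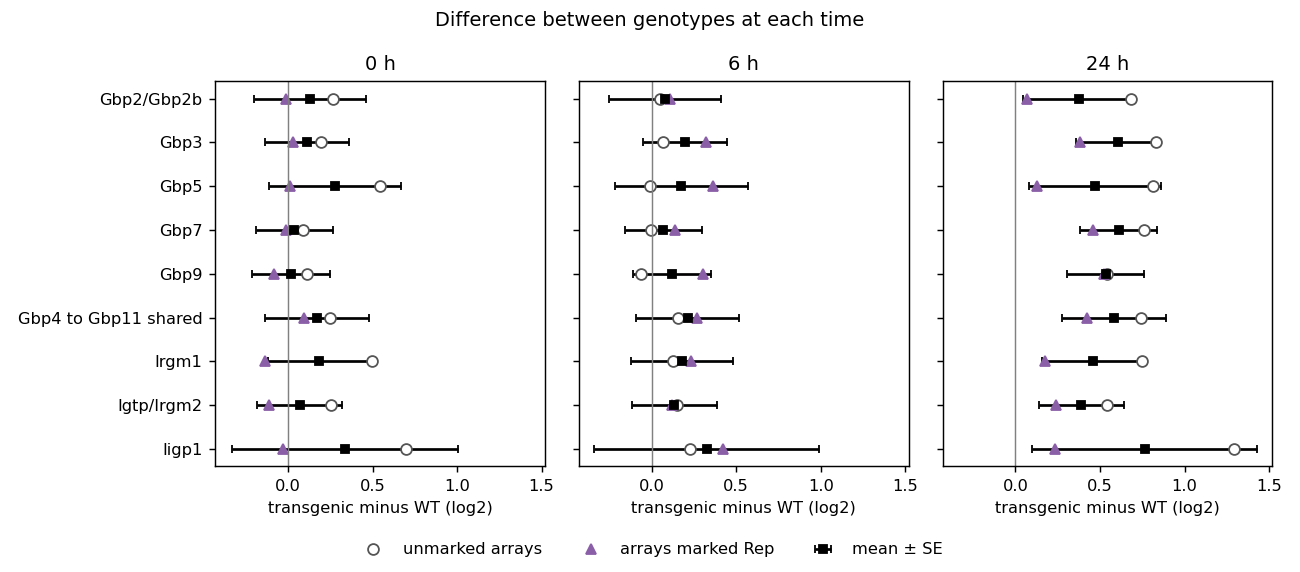
Transgenic minus WT difference (log2, horizontal axis) of each member probe set at 0 h, 6 h and 24 h, with squares for the mean ± SE of the fit, open circles for the difference between the unmarked arrays and triangles for that between the arrays marked Rep. At 24 h all 18 single-set values are above 0, from 0.07 to 1.29, while at 0 h 6 triangles are below 0.

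A difference between genotypes in a response needs its own test, and none was called. For the 6 h response the transgenic minus WT values were -0.10 to 0.10, with a median of 0.03. The array sets went opposite ways there, with all 9 members negative between the unmarked arrays (median -0.18, from -0.56 to -0.09) and all 9 positive between the marked arrays (median 0.29, from 0.12 to 0.45). Without the 3 WT arrays marked Rep the median was -0.17 and 1 of 9 was positive. For the 24 h response the values were 0.19 to 0.57, with a median of 0.41, and all 9 were positive in both sets (medians 0.43 and 0.33). That median was 0.44 without the 3 WT arrays marked Rep, but -0.05 without the marked WT array at 0 h, with 4 of 9 positive, and 0.05 without the unmarked WT array at 24 h, with 5 of 9 positive. limma called 0 of 9 in either, 0% of all tested probe sets were called, and 0 of 9 had an unadjusted p below 0.05. With the block 4 members had an unadjusted p below 0.05 in the 24 h response, Gbp7, Gbp9, Gbp3 and the 6-gene Gbp set, each with an adjusted p of 1. For unadjusted p with the block no count over all tested is given here. Averaged over the 3 times the genotype difference was 0.19 to 0.48, with a median of 0.27 (0.51 without the 3 WT arrays marked Rep). There limma called 0 of 9 with a lowest adjusted p of 0.80, against 0.0214% of all tested called higher. The block also called 0 (0.0726% of all tested), with a lowest adjusted p of 0.17. With it 7 members had an unadjusted p below 0.05, again without a count over all tested beside it.

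The mark in the titles moved with the members as well. This comparison was added after the values had been seen. In each of the 6 groups the array marked Rep was above the unmarked one for all 9 members. These are 6 pairs of arrays, each read by 9 probe sets that moved together, so the members are not separate replicates. Of all tested probe sets, 7.57% were higher on the marked array in all 6 groups. The median difference was 0.42 over the members and 0.01 over all tested. limma called 4 of 9 higher, where 0.649% of all tested were called higher and 0.538% lower. Iigp1 was higher on the marked arrays by 1.05 ± 0.16 (adjusted p = 0.034), the 6-gene Gbp set by 0.51 ± 0.05 (adjusted p = 0.013), Gbp7 by 0.37 ± 0.05 (adjusted p = 0.028) and Gbp9 by 0.36 ± 0.06 (adjusted p = 0.038).

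By group the members' median difference was 0.74 in WT at 0 h, 0.23 at 6 h and 0.72 at 24 h, and 0.37, 0.42 and 0.29 in transgenic cells. Over the times it was 0.33 to 1.32 in WT and 0.24 to 0.79 in transgenic cells, and the difference between genotypes was not called for any member (lowest adjusted p = 0.95). No member was called from the 6 WT arrays alone or from the 6 transgenic arrays alone. Leaving out any array other than a transgenic 24 h array reduced the 4 calls to 0 or 1, to 0 without either transgenic 6 h array. On the WT arrays marked Rep, where the members were higher, neutrophil and monocyte markers were at their lowest. Neutrophil and CD8 T cell markers were lower on the marked array in all 6 groups. Natural killer cell markers were higher on it at 0 h and 6 h in both genotypes, in WT at 9.47 against 8.84 and at 8.96 against 8.18, and lower at 24 h in both. B cell markers followed the same pattern, in WT at 10.67 against 10.48, 9.90 against 9.31 and 10.31 against 10.84. Dendritic cell markers were higher on it in all groups but WT at 24 h. Their part in the difference between marked and unmarked arrays was not tested.

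**Figure D4:**
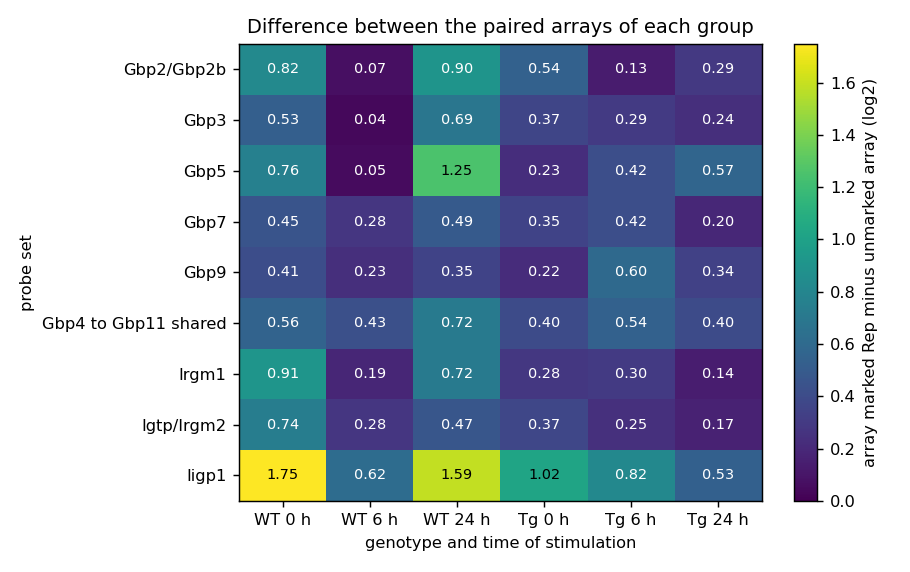
Heat map of the value on the array marked Rep minus that on the unmarked array (log2, colour and printed number) for each member probe set in each of the 6 groups, with Tg for transgenic. All 54 cells are above 0, from 0.04 for Gbp3 in WT at 6 h to 1.75 for Iigp1 in WT at 0 h.

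Members moved together across the 12 arrays, which share the stimulation, the genotypes and the mark. The 36 pairwise Pearson correlations ran from 0.34, between Gbp5 and Gbp9, to 0.99, between Irgm1 and the Igtp and Irgm2 set, with a median of 0.82. Against the mean profile of the members, from centred values, Irgm1 had the highest correlation, 0.99, and Gbp7 and Gbp9 had the lowest, 0.69 and 0.61. That profile was lowest on the unmarked WT array at 0 h, at -1.05, and highest on the marked transgenic array at 24 h, at 0.67. The unmarked WT array at 24 h, at -0.42, was below both marked 0 h arrays, at -0.28 and -0.31.

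The genes outside the list whose values followed this profile most closely, by Pearson correlation over 12 arrays among 10877 probe sets of 1 gene with a mean above the median, were Gm4951 (0.975), Cd274 (0.968), Irf1 (0.959), Gm12250 (0.957), Gfpt1 (0.948), Nlrc5 (0.945), Ttc1 (0.936), St7 (0.936), Ifng (0.936) and Ly75 (0.934). Gm4951 and Gm12250 are annotated relatives of the immunity-related GTPases. Cd274 encodes PD-L1, Irf1 an interferon-induced transcription factor, Nlrc5 a transactivator of MHC class I genes, and Ifng interferon gamma itself.

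**Figure D5:**
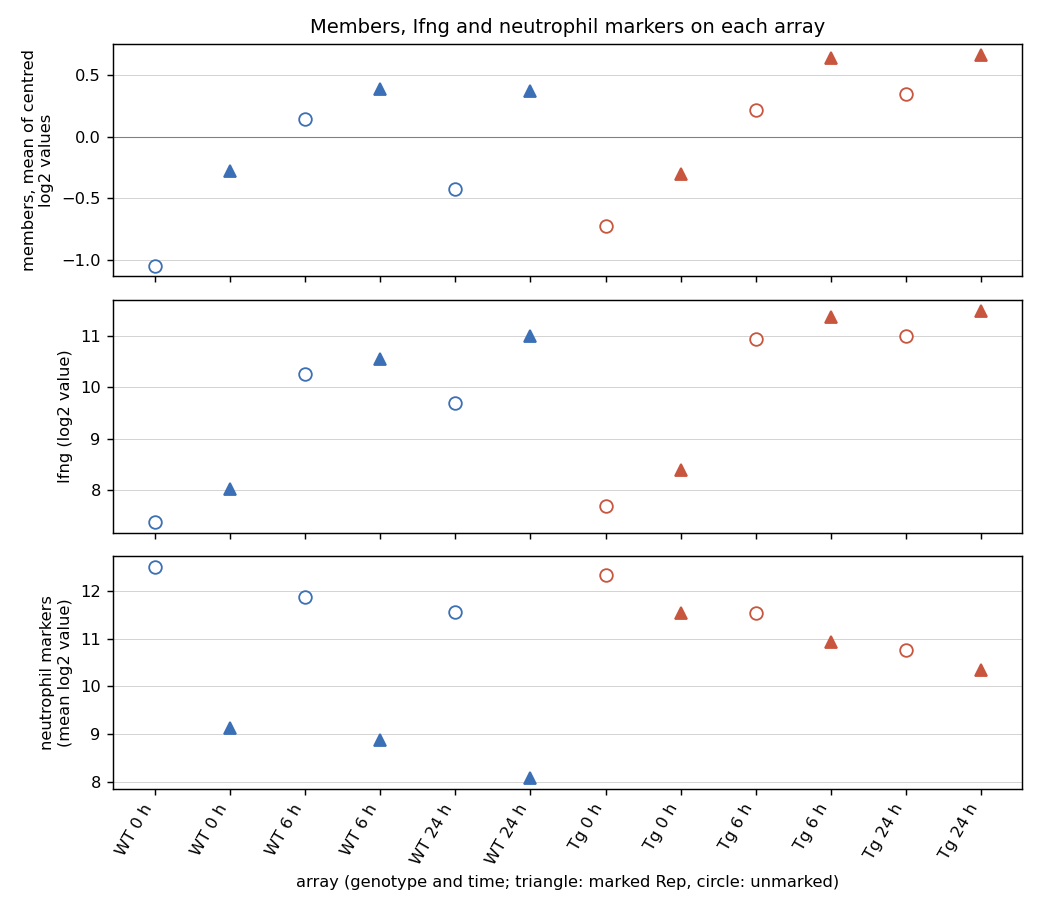
Panels over the 12 arrays (horizontal axis, genotype and time, circles unmarked and triangles marked Rep, Tg for transgenic): the mean of the members' centred log2 values, the log2 value of Ifng, and the mean log2 value of 10 neutrophil markers. Members run from -1.05 to 0.67 and Ifng from 7.37 to 11.49, both higher on the triangle of each group, whereas neutrophil markers run from 8.08 to 12.50 and are lower on it.

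The list of other interferon-inducible GTPases holds 19 gene symbols, not all of them necessarily separate genes, and 8 matched a probe set of their own. In WT 2 of 8 were called higher at 6 h and 2 at 24 h, and with the block 6 and 2. In transgenic cells 4 were called higher at 6 h and 3 at 24 h, and with the block 7 and 6. Of all tested probe sets, 12.6% in WT and 12.5% in transgenic cells were called higher at 6 h, and 12.9% and 12% at 24 h. With the block the shares were 14.3% and 14.1%, then 14.7% and 13.9%. Called in either direction without the block were 6209 and 5935 of the 23410 at 6 h, and 6245 and 5569 at 24 h. The same shares apply to the lists below. Gm4951 rose in all 4 comparisons, by 1.61 ± 0.45 and 1.48 ± 0.45 in WT and by 1.55 ± 0.45 and 2.06 ± 0.45 in transgenic cells at 6 and 24 h (limma adjusted p = 0.026, 0.037, 0.031 and 0.0096). Mx1, an antiviral GTPase of the type I interferon response, rose by 1.98 ± 0.58 at 6 h in transgenic cells (adjusted p = 0.034), and in WT its difference was 1.78 ± 0.58 (adjusted p = 0.051, block 0.018). At 24 h its difference was 0.39 in both genotypes (adjusted p = 0.70 and 0.72). In the 24 h comparison of genotypes all 8 were higher in transgenic cells, 0.26 to 1.09 with a median of 0.55, and limma called none (unadjusted p below 0.05 for Gbp2b only).

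Relatives of these GTPases that are not known to be interferon-inducible were measured for 8 of 10 listed symbols, atlastins and dynamins among them. They had median genotype differences of -0.001, -0.02 and 0.06 at 0, 6 and 24 h, with none called. At 6 h 1 was called higher and 1 lower in each genotype.

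Interferon gamma signalling genes were measured for 14 of 15 on the list. In each genotype 7 of 14 were called higher and 3 lower at 6 h. At 24 h 5 were called higher and 3 lower in WT, and 4 and 3 in transgenic cells. Ifng read 7.37 and 8.01 on the WT arrays at 0 h, 10.25 and 10.55 at 6 h, and 9.69 and 11.00 at 24 h. In transgenic cells it read 7.68 and 8.38, then 10.93 and 11.37, then 11.01 and 11.49. The transgenic arrays at 6 h were above those of WT without overlap, and at 24 h they were too, by 0.01 at the closest. Ifng rose at 6 h by 2.71 ± 0.42 in WT and by 3.13 ± 0.42 in transgenic cells (limma adjusted p = 0.0012 and 0.00057), and the 24 h difference between genotypes was 0.91 ± 0.42 (adjusted p = 1, block 0.59).

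Of the receptor and its kinases, Ifngr1, the ligand-binding chain, fell at 6 h by 1.41 on the log2 scale in WT and by 1.27 in transgenic cells, and Jak1 by 0.65 and 0.66. Jak2 rose at 6 h by 0.93 ± 0.22 and 0.71 ± 0.22. Among the targets and inhibitors, Irf8, a transcription factor, rose by 1.66 and 1.49 and Socs1, a feedback inhibitor of JAK kinases, by 1.19 and 1.74. Irf1, whose profile followed the members, passed with the block only, at 0.37 ± 0.22 in WT and 0.43 ± 0.22 in transgenic cells at 6 h (limma adjusted p = 0.30 and 0.23, block 0.012 and 0.0061). In the 24 h comparison of genotypes 13 of 14 were higher in transgenic cells, with a median of 0.18 and none called, Socs3 and Usp18 having an unadjusted p below 0.05.

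Interferon gamma targets outside these GTPases (19 of 20 measured) were called higher for 7 at 6 h in WT, with 1 lower, and for 9 in transgenic cells. At 24 h 5 were called higher in WT and 11 in transgenic cells. Psme1 and Psme2, the proteasome activator subunits, rose at 6 h by 0.75 and 0.72 in WT and by 0.71 and 0.70 in transgenic cells. In the 24 h comparison of genotypes all 19 were higher in transgenic cells, with a median of 0.19 and none called. Nos2, Ido1, Cxcl9 and Cxcl10, genes best known from macrophages, had the smallest p, with differences of 1.23, 0.79, 1.69 and 1.83 (adjusted p = 1 for each).

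Type I interferon-stimulated genes (24 of 26 measured) were called higher at 6 h for 2 in WT and 6 in transgenic cells. Of all tested, 12.6% and 12.5% were. With the block 10 and 13 were called higher, against 14.3% and 14.1% of all tested. At 24 h 1 was called higher in WT (12.9% of all tested) and 4 in transgenic cells (12%). The WT counts without the block were below the shares of all tested. All 24 were higher in transgenic cells at 24 h, with a median of 0.55 and none called, close to the members' 0.53. Their 24 h medians in the unmarked and the marked arrays were 0.62 and 0.55, against 0.75 and 0.24 for the members. At 6 h the corresponding medians were -0.03 and 1.08, against 0.07 and 0.27 for the members. Type I interferon signalling genes (15 of 16 measured) had a 24 h median of 0.24, none called.

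Partners of the GTPases in autophagy and the inflammasome (20 of 20 measured) had median genotype differences of 0.04, 0.01 and 0.02 at 0, 6 and 24 h, and none was called. At 6 h 5 were called higher and 6 lower in WT, and 2 and 5 in transgenic cells. Pycard, the inflammasome adaptor, fell at 6 h by 1.0 on the log2 scale in WT and by 0.94 in transgenic cells, while Gbp5 rose in both.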

How the data were processed

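The deposited table holds log2 values per probe set for 12 one-colour arrays of biotin-labelled cDNA; the sources used here do not give how the authors summarised and normalised them. Per the labels, RNA came from TRIZOL extracts cleaned on Qiagen columns. Gene names came from the platform annotation: 21789 probe sets named 1 gene, 1621 several and 5443 none, and the 23410 with a name were tested.

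The values were quantile-normalised between arrays and fitted with limma 3.58.1 in R 4.3.3, with a mean for each of 6 groups (6 residual and 3.05 prior degrees of freedom). p-values were adjusted by Benjamini-Hochberg within each of 12 comparisons, with a threshold of 0.05. The fit was tested on simulated data. The replicate block was the mark Rep of the titles: same-marked arrays deviated together in all 15 pairs of groups (correlations of 0.138 to 0.591), so the mark was taken to pair arrays.

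Alternatives were array weights, the block, a fit of the compared groups only, deposited or median-centred values, all rows tested, no probe sets among the 40% dimmest, the brightest probe set of a gene, robust moderation with a trend, and fits without each array or without the 3 WT arrays marked Rep. The comparison of marked with unmarked arrays was added after the values had been seen.

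Members and gene lists were chosen with earlier results of these data known. Named were all member probe sets, any measured gene of the lists of other GTPases and interferon gamma signalling, up to 4 genes of smallest p per other list, the 10 genes most like the members' mean profile, Ppp2ca, Nova1 and markers. Promoters are those of RefSeq for GRCm38.p6. Windows of 7 of the 10 members were searched, and any on chromosome 18, where Iigp1 lies, was left out. Precision is limited by the number of arrays.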

Additional observations from a re-analysis of the deposited data

How the results depend on the processing

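Counts of members called moved with the choices below, and no called difference changed sign under any alternative run. With the replicate block the calls were 8 of 9 for 6 h against 0 h in WT, 8 in transgenic cells, 6 for 24 h against 0 h in WT, 8 in transgenic cells, 2 for 24 h against 6 h in WT and 1 in transgenic cells; it changed no count of calls between genotypes, which was 0 under every alternative. Without the 40% dimmest probe sets 2 members were called for 24 h against 0 h in WT, and trended and robust moderation left 1 for 24 h against 0 h in transgenic cells. A fit of only the groups compared called 6 for 6 h against 0 h in transgenic cells. Without the 3 WT arrays marked Rep the calls were 4 for 6 h against 0 h in WT, 1 for 24 h against 6 h in WT and 6 for 6 h against 0 h in transgenic cells. For marked against unmarked arrays the calls were 0 without the 6 WT arrays and 0 without the 6 transgenic arrays. Leaving out 1 array in turn gave 1 to 5 calls for 6 h against 0 h in WT, 1 to 4 in transgenic cells, 1 to 3 for 24 h against 0 h in WT, 1 to 5 in transgenic cells, 0 to 1 for 24 h against 6 h in WT, 0 to 3 for marked against unmarked arrays, and 0 in every other comparison; where this leaves 1 array in a group, it is assumed to vary like the others. The causes were not tested. Of single member differences, 1026 kept their side of the threshold and 38 gained and 7 lost a call under the alternatives that keep every replicate or drop the 3 marked WT arrays. Under the fits that leave out 1 array 13 gained and 27 lost a call. Differences that were not called did change sign: in 16 of 198 member fits for the genotypes at 0 h, 8 of 198 at 6 h, 3 of 198 at 24 h and 0 of 189 averaged over the times, in 39 of 198 for the genotype difference in the 6 h response and 12 of 198 in the 24 h response, in 14 of 198 for 24 h against 6 h in WT and 8 of 198 in transgenic cells, in 9 of 198 for 24 h against 0 h in WT and 0 of 198 in transgenic cells, and in 3 of 198 for 6 h against 0 h in WT and 2 of 198 in transgenic cells. With 2 arrays a group, the number of arrays limits what could be detected.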
